A study of Mus musculus with 6 samples.

Results

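The activin, BMP and TGF-beta genes described here are 10 named members of 1 signalling family. They are the ligand genes Inhba, Inhbb, Bmp2, Bmp7 and Tgfb2, the activin-binding inhibitor genes Fst and Fstl3, and the receptor genes Acvr1, Acvr2a and Bmpr1a. They were chosen by gene symbol, and all 10 were found among the 21740 genes of the deposited array table. Their RNA was measured in the luminal epithelium, the sheet of cells facing the cavity of the uterus, at gestation day 3.5 (D3.5), when the uterus held blastocysts, and a day later (D4.5), when implantation sites had formed. Each day had 3 one-colour Affymetrix arrays. Both groups were wild-type mice of mixed C57BL6/129svj background, aged 2 to 4 months, mated naturally, with D0.5 as the day of the vaginal plug. The epithelium was removed as sheets with dispase and scraping, and the labels give no split of D4.5 tissue into implantation sites and the regions between them. Whether the arrays of a day are separate animals is not stated in the labels, and the p-values therefore rest on a spread between samples that may be technical.

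Activins are dimers of inhibin beta subunits, and BMPs and TGF-betas are related dimeric ligands. A ligand joins type II and type I receptor kinases, and the type I receptor then phosphorylates SMAD proteins, SMAD2 and SMAD3 for activin and TGF-beta and SMAD1, SMAD5 and SMAD9 for BMPs, which enter the nucleus with SMAD4. Follistatin, the product of Fst, and the related FSTL3 bind activins and keep them from their receptors. In the mouse uterus the family is known for its part in receptivity of the epithelium and in the change of stroma into decidua after attachment, where Bmp2 is a stromal gene.

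The upstream DNA of the 2 members with the clearest changes, Inhbb and Acvr1, is shown because these 2 genes carry the comparison of the days. Each run is the 250 bases before the gene's start in RefSeq (build GRCm38.p6), 5′ to 3′ on the gene's own strand. Both genes lie on the minus strand, Inhbb with its window at chr1:119422249-119422498 and Acvr1 at chr2:58566829-58567078.
Inhbb: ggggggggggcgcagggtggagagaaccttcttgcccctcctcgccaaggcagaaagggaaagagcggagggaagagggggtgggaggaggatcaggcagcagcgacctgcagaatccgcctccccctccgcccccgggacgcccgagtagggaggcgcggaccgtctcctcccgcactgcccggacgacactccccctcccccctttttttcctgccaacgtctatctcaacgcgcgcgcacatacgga
Acvr1: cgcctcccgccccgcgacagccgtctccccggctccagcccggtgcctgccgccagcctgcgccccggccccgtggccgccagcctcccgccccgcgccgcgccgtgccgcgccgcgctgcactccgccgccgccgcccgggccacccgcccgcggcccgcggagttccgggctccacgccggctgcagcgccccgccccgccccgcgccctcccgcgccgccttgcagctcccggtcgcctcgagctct
The Acvr1 window was 85.6% G and C with 46 CG pairs, and the Inhbb window 68.0% with 21, beside medians of 52.4% and 6 over 32851 such windows. For 3 motifs known to be bound by SMAD proteins, both strands were searched. The palindrome GTCTAGAC stands in 0.167% of all windows, the SMAD box CAGAC in 42.2%, and the palindrome GGCGCC in 9.59%. None of the 3 had a match in either window, so no letters are in capitals. Of the 7 members with a sequence, Inhba, Inhbb, Fstl3, Tgfb2, Acvr1, Acvr2a and Bmpr1a, 3 held CAGAC (Fstl3, Tgfb2 and Acvr2a) and 1 held GGCGCC (Bmpr1a). A match is a description of letters and not a site.

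Levels are given as log2(intensity + 16), quantile normalized, with the SD of the 3 arrays of each day (n = 3). Changes are log2 differences of D4.5 minus D3.5 ± SE, with limma's adjusted p over all genes. The deposited median intensity per array was between 108.6 and 118.4 at D3.5, and lower at D4.5, between 78.9 and 80.2. Levels of 1346 chemosensory receptor genes, which this tissue is not known to use, served as background, and a day's mean at or under their 95th percentile of that day is called background level. Of these, 95% had a mean level of 6.56 or less at D3.5 and of 6.37 or less at D4.5, 95% of their changes lay between -0.59 and 0.33, and 404 passed the adjusted p. This range comes from quantile-normalized values at low levels. Beside genes well above background level it is only a description. Markers of luminal epithelium averaged 10.3 to 10.59 on the D3.5 arrays and 10.49 to 10.65 on the D4.5 arrays (9 genes). Markers of stroma and decidua were present as well, between 7.4 and 7.88 on arrays of D3.5, and between 7.02 and 8.13 on those of D4.5 (12 genes), and 0 of the 12 passed the test between the days, with 3 at background level on both. In bulk samples fewer cells of a type and less RNA per cell cannot be told apart. The lowest stromal level was on D4.5 replicate 3, where 10 of the 12 markers had their lowest value of the 6 arrays, and the highest was on D4.5 replicate 1.

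The comparison of the days asked how genes of this family differ between the epithelium before and after implantation. On D4.5 the activin beta-B subunit gene Inhbb was higher, the BMP type I receptor gene Acvr1 was lower, and Bmp7 was slightly lower. The other 7 members did not pass the test, and no member passed with a 2-fold change, beside 5.50% of all genes. Thus 3 of 10 passed beside 44.4% of all genes in either direction (18.0% higher and 26.4% lower), a share that is not above the background. The median change of the 10 was 0.02, beside -0.07 over all genes. The arrays of the days did not overlap for 2 members, Inhbb and Acvr1, beside 58.6% of all genes.

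**Figure D1:**
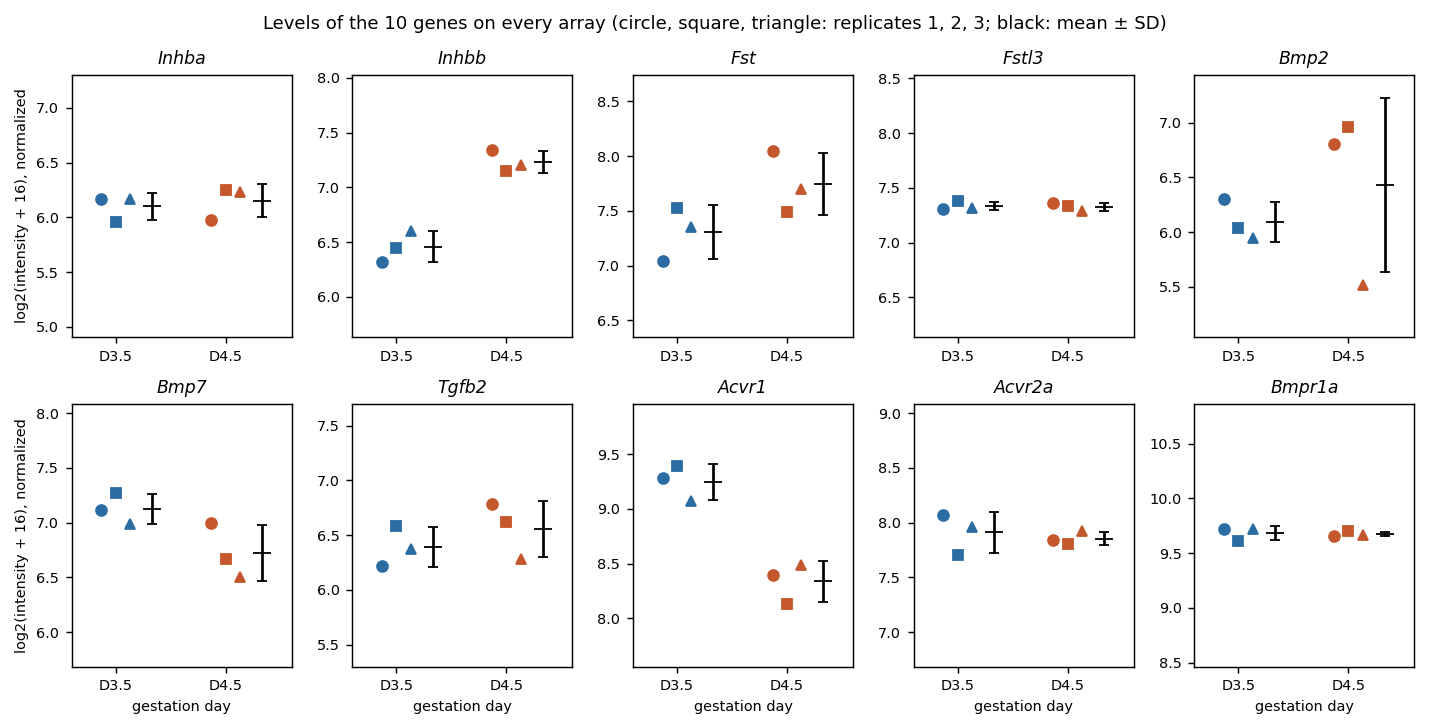
Normalized log2(intensity + 16) of each of the 10 genes on the 3 D3.5 arrays (blue) and the 3 D4.5 arrays (orange), with the mean ± SD of each day in black; every panel spans the same log2 range around its own middle. The arrays of the days stand apart for Inhbb and Acvr1 and overlap for the other 8 genes, and the low D4.5 triangle of Bmp2 is replicate 3 at 5.52.

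Among the ligands, Inhbb stood at 6.32, 6.45 and 6.60 on D3.5 replicates 1, 2 and 3 and at 7.34, 7.15 and 7.20 on those of D4.5. Every D4.5 array was above every D3.5 array. The gene rose, with means of 6.46 ± 0.14 and 7.23 ± 0.10 and a fitted difference of 0.77 ± 0.09 (limma adjusted p = 0.000724, 95% interval 0.55 to 0.99). Its D3.5 mean was at background level and its D4.5 mean above it, so the size of the rise is uncertain. With each D3.5 array raised to the 95th percentile of the chemosensory receptor genes on it, the difference was 0.65, or 1.56-fold. That value is an estimate without an interval and not a minimum. The fitted difference ran from 0.54 to 0.90 with the constant added before the logarithm. In the deposited intensities it read 85.3, 83.8 and 96.4 on D3.5 and 134.4, 110.8 and 113.0 on D4.5. In the values as deposited, without scaling, the change was 0.37 and still passed (adjusted p = 0.00906), while the median gene changed by -0.40 there.

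Inhba, which encodes the beta-A subunit of activin, stood at 6.17, 5.96 and 6.17 on D3.5 and at 5.98, 6.25 and 6.23 on D4.5. These values interleave, and both day means lay at background level. The change was 0.06 ± 0.10 (limma adjusted p = 0.681, 95% interval -0.18 to 0.29). Only as deposited did it pass, at -0.44 (adjusted p = 0.0154), beside the -0.40 of the median gene in those values. The 2 beta subunit genes thus had intervals of change that do not meet, 0.55 to 0.99 for Inhbb and -0.18 to 0.29 for Inhba. The difference between their changes was not tested.

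Bmp2 had the widest spread of the members. It stood at 6.30, 6.04 and 5.95 on D3.5 and at 6.81, 6.96 and 5.52 on D4.5, so that 2 of the D4.5 arrays were above every D3.5 array and the other was below all of them. The change was 0.33 ± 0.35 (limma adjusted p = 0.468, 95% interval -0.48 to 1.15). Without D4.5 replicate 3 it was 0.79 and passed (adjusted p = 0.00506). The D3.5 mean, 6.10, lay at background level and the D4.5 mean, 6.43, just above it. Markers of stroma and decidua averaged 8.13, 7.59 and 7.02 on D4.5 replicates 1, 2 and 3, and endothelial markers 7.69, 7.19 and 6.60, while luminal epithelial markers averaged 10.6, 10.49 and 10.65. The array low in Bmp2 was therefore also the array lowest in stromal and endothelial markers. Its Bmp2 value, 5.52, lay under the D4.5 background level of 6.37. The highest arrays differed, replicate 2 for Bmp2 and replicate 1 for both marker lists. On D3.5 Bmp2 was highest on replicate 1, and the stromal (7.88) and endothelial (7.48) markers on replicate 2. The part of stromal and endothelial cells in the value of Bmp2 was not tested.

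**Figure D2:**
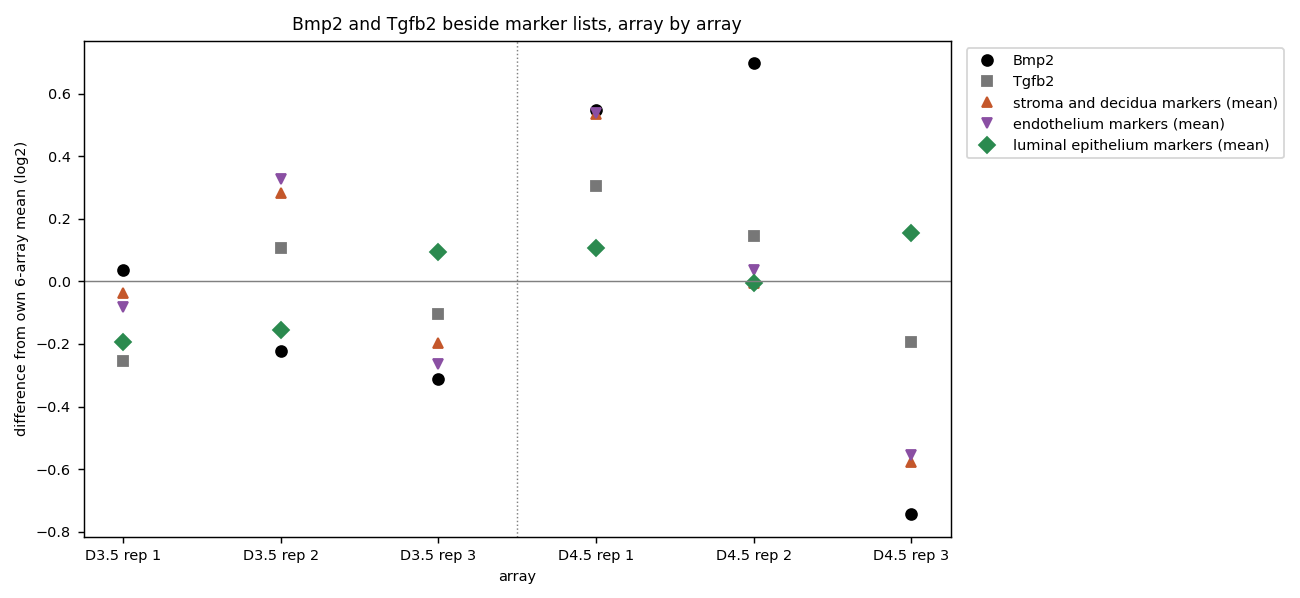
Difference of Bmp2, Tgfb2 and the mean of 3 marker lists from their own mean over the 6 arrays, in log2 units, array by array (rep, replicate; dotted line, border between the days). On D4.5 replicate 3 Bmp2 and the stromal and endothelial markers all lie at their lowest, and the luminal epithelial markers do not.

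Tgfb2, a TGF-beta ligand gene, stood at 6.22, 6.58 and 6.37 on D3.5 and at 6.78, 6.62 and 6.28 on D4.5. The days overlap, and within D4.5 replicate 3 was again the lowest. The change was 0.17 ± 0.15 (limma adjusted p = 0.37, 95% interval -0.17 to 0.51), with the D3.5 mean at background level. As deposited it stood at -0.30 (adjusted p = 0.0815).

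Bmp7 had 2 rows in the table, which differed from each other. Over the 1746 genes with several rows, deviations of rows from their gene's mean correlated with -0.001 between the days and with at least 0.944 between arrays of a day (5076 rows, as a description), beside 0.934 for the day means of genes with 1 row. Of 344 genes whose 2 rows were at least 1 apart on both days, 174 (50.6%) had the opposite order on the 2 days. Rows of a gene are therefore not taken as matched between the days. The first listed row stood at 7.78, 8.22 and 7.69 on D3.5 and at 6.09, 6.01 and 6.10 on D4.5, and the second at 6.44, 6.33 and 6.28 on D3.5 and at 7.91, 7.34 and 6.90 on D4.5. Read as listed, 1 row was lower by 1.83 on D4.5 and the other higher by 1.03. Paired the other way, both rows were lower, with differences of -0.51 and -0.28. Whether the opposite order is a change of 2 probe sets or a mismatch of rows was not tested for Bmp7 itself, and their mean, the same under either pairing, was tested. That mean was 7.11, 7.27 and 6.99 on D3.5 and 7.00, 6.67 and 6.50 on D4.5, with 1 D4.5 array inside the range of D3.5. The mean fell by 0.40 ± 0.14 on the log2 scale, from 7.12 ± 0.14 to 6.72 ± 0.25 (limma adjusted p = 0.0493), inside the 95% range of changes of the chemosensory receptor genes. The call was lost without any 1 array other than D4.5 replicate 1 (adjusted p 0.056 to 0.136), with median centring (-0.32) and with a constant of 64 (-0.29). With the row of the highest mean in place of the mean of rows, the change was -1.83. This is the first row read as listed, a pairing not taken as matched, and so not a separate estimate.

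**Figure D3:**
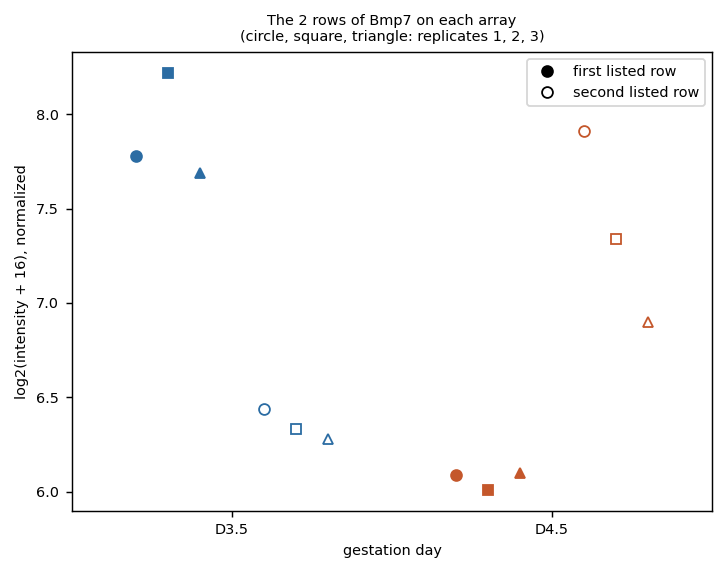
Normalized log2(intensity + 16) of the 2 Bmp7 rows on each array, filled for the first listed row and open for the second, D3.5 in blue and D4.5 in orange. On each day 1 row is high and 1 low, but the listed order of high and low is opposite on the 2 days, and rows of 1 gene do not keep their order between the days over the table as a whole.

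Of the inhibitors, Fst, which encodes follistatin, stood at 7.04, 7.53 and 7.35 on D3.5 and at 8.05, 7.49 and 7.70 on D4.5. The D4.5 values were higher apart from replicate 2, which lay inside the D3.5 range. The change of 0.44 ± 0.17 did not pass (limma adjusted p = 0.0673, 95% interval 0.05 to 0.84). It passed with median centring (0.62, adjusted p = 0.0304) and without D3.5 replicate 2 (0.56, adjusted p = 0.0456). It was smaller as deposited (0.20), with array weights (0.23) and without D4.5 replicate 1 (0.29), without a call in each. Its highest array, D4.5 replicate 1, was also the highest in stromal markers, and on D3.5 both were highest on replicate 2. On D4.5 replicate 3, the lowest in those markers, Fst (7.70) was above its value on replicate 2 (7.49). The part of stromal cells was not tested. Fstl3, the second activin-binding inhibitor, was nearly level at 7.31, 7.38 and 7.32 on D3.5 and 7.36, 7.33 and 7.29 on D4.5. Its change was -0.01 ± 0.06 with a 95% interval of -0.16 to 0.14 (adjusted p = 0.919). As deposited it stood at -0.29 and passed (adjusted p = 0.00817), less than the shift of the median gene.

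Among the receptors, Acvr1 encodes a type I receptor that answers to BMPs and can bind activin. It stood at 9.28, 9.39 and 9.07 on D3.5 and at 8.40, 8.13 and 8.49 on D4.5. The 2 days were separated by more than the range within either. The gene fell by 0.91 ± 0.12 on the log2 scale, or 1.87-fold, from 9.25 ± 0.16 to 8.34 ± 0.18 (limma adjusted p = 0.00104, 95% interval -1.19 to -0.63), well above background level on both days. Deposited intensities were 535.2, 678.2 and 548.8 on D3.5 and 324.3, 254.0 and 328.9 on D4.5. With median centring the change was -0.50 and still passed (adjusted p = 0.0278). The 3 genes with the most similar profile over the 6 arrays, by root mean square difference after centring, were Me3 (0.059), Lipe (0.063) and A4galt (0.079), whose own changes were -0.90, -0.82 and -0.90. With median centring A4galt stood at -0.44, beside -0.50 for Acvr1. With the highest row Lipe stood at -1.63 and Me3 at -1.22. That setting follows single rows, which are not taken as matched between the days. Likeness was measured only for quantile-normalized means of rows.

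The other 2 receptors did not pass. Bmpr1a, a type I receptor of BMPs, stood at 9.72, 9.61 and 9.72 on D3.5 and at 9.66, 9.70 and 9.67 on D4.5. All D4.5 arrays lie inside the D3.5 range. Its change was -0.01 ± 0.07 (limma adjusted p = 0.939, 95% interval -0.16 to 0.15). With median centring it was 0.46 and passed (adjusted p = 0.00919), and as deposited 0.04. Acvr2a, a type II receptor of activins, stood at 8.07, 7.70 and 7.96 on D3.5 and at 7.84, 7.80 and 7.92 on D4.5, all inside the D3.5 range. The change was -0.06 ± 0.10 (adjusted p = 0.679, 95% interval -0.30 to 0.18), and 0.23 with median centring (adjusted p = 0.0623). Under quantile normalization the intervals of Acvr1 and Bmpr1a do not meet, and in each of the 3 scalings Acvr1 had the lower change of the 2 type I receptor genes. That difference was not tested.

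**Figure D4:**
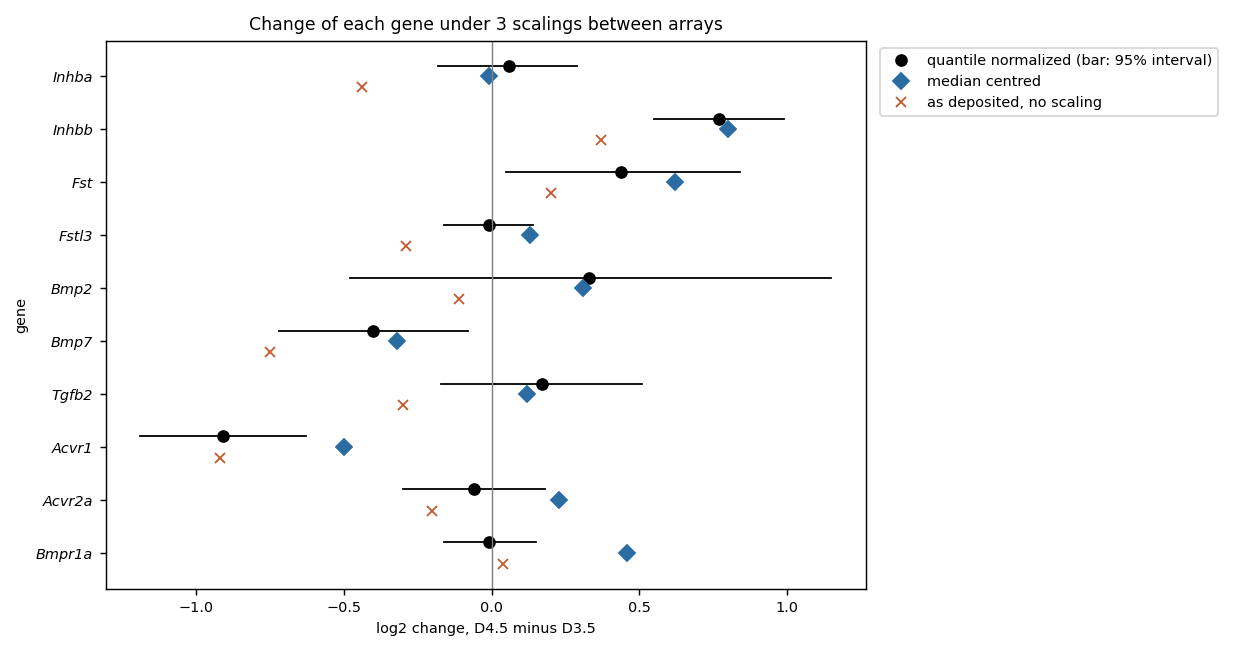
Log2 change of D4.5 minus D3.5 for each of the 10 genes under 3 scalings between arrays: quantile normalization (black, with the 95% interval), median centring (blue) and the values as deposited (orange crosses). Inhbb lies right of 0 and Acvr1 and Bmp7 left of 0 under all 3, while Inhba, Fstl3, Bmp2, Tgfb2, Acvr2a and Bmpr1a change sign between scalings.

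The other genes of the pathway were read in the same fit. Of 119 measured, 19 rose and 32 fell, beside the 18.0% and 26.4% of all genes, and 68 did not pass. The counts by role given below stand beside these same shares, and no role was tested as a set. Past 2-fold 4 rose and 5 fell, beside 3.04% and 2.46% of all genes. Their median change was -0.07, as for all genes, and 21 of them lay at background level on both days. The balance turned with scaling, to 34 higher and 25 lower with median centring and to 12 and 66 as deposited. Past 2-fold it was 10 higher and 3 lower with median centring, beside 1276 and 296 of all genes in place of 660 and 535.

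The largest changes were in genes for proteases that act on the ligands and their inhibitors, where 3 of 6 rose and none fell (median change 0.27). Pcsk6, a proprotein convertase that can cleave TGF-beta family precursors, stood at 6.87, 7.30 and 6.81 on D3.5 and at 10.92, 10.96 and 10.80 on D4.5. It rose 15-fold (3.90 ± 0.13, limma adjusted p = 8.75e-06). Tll1, a tolloid-like metalloprotease of the group that cleaves the BMP inhibitor chordin, stood at 6.70, 7.44 and 6.15 on D3.5 and at 10.86, 11.29 and 11.12 on D4.5. It rose 20.1-fold (4.33 ± 0.30, adjusted p = 6.47e-05). Both genes were separated between the days by more than any spread within one. Bmp1, the relative of Tll1 that also processes procollagen, rose by 0.33 ± 0.09 (adjusted p = 0.0211), without a call when D3.5 replicate 3 (0.28), D4.5 replicate 1 (0.26) or D4.5 replicate 2 (0.35) was left out and as deposited (0.25). With median centring it was 0.68.

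Secreted inhibitors and latency proteins had 1 rise and 6 falls among 24 genes (median change -0.15). Crim1, a transmembrane protein that binds BMPs, stood at 6.84, 7.93 and 7.26 on D3.5 and at 9.57, 9.28 and 9.61 on D4.5. All D4.5 arrays were higher, and the gene rose by 2.14 ± 0.25, or 4.42-fold (limma adjusted p = 0.000641). Itgb6, an integrin subunit that activates latent TGF-beta, stood at 8.15, 8.04 and 7.96 on D3.5 and at 6.70, 6.75 and 6.83 on D4.5. It fell by 1.29 ± 0.08 on the log2 scale (adjusted p = 4.05e-05). The BMP inhibitor gene Nog fell by 0.52 ± 0.13 and Dand5, of the Cerberus family of inhibitors, by 0.36 ± 0.08, the latter near background level at 6.91 and 6.56, and as deposited the 2 genes stood at -0.86 and -0.79. Their quantile-normalized changes, -0.52 and -0.36, lie inside the 95% range of the chemosensory receptor genes. Thbs1, thrombospondin, another activator of latent TGF-beta, stood at 9.58, 9.38 and 10.10 on D3.5 and at 9.25, 8.26 and 7.42 on D4.5. Its change of -1.38 ± 0.42 passed (adjusted p = 0.0327), but not with median centring (-0.98) or without D3.5 replicate 1 (-1.43), D3.5 replicate 3 (-1.17), D4.5 replicate 2 (-1.35) or D4.5 replicate 3 (-0.93). The order of its D4.5 arrays is that of the stromal markers. On D3.5 its order is the reverse of theirs, which averaged 7.56, 7.88 and 7.4 on replicates 1, 2 and 3. The part of stromal cells was not tested.

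Of 9 other receptor genes 2 rose and 3 fell (median change -0.12). Tgfbr1 and Tgfbr2, which encode the type I and type II receptors of TGF-beta, moved in opposite directions. Tgfbr1 stood at 8.42, 8.46 and 8.27 on D3.5 and at 9.01, 8.85 and 9.24 on D4.5 and rose by 0.65 ± 0.11 (limma adjusted p = 0.00343). Tgfbr2 stood at 9.14, 9.31 and 9.04 on D3.5 and at 8.81, 8.43 and 8.53 on D4.5 and fell by 0.57 ± 0.12 (adjusted p = 0.00724). With median centring Tgfbr1 stood at 1.05 and Tgfbr2 at -0.15 without a call. The quantile-normalized changes of Tgfbr2, Bmpr2, Amhr2 and Acvr1c lie inside the 95% range of the chemosensory receptor genes. Tgfbr2 and Bmpr2 stand well above the level of those genes, from which the range was taken. Bmpr2, a type II receptor of BMPs, fell by 0.44 ± 0.13 (adjusted p = 0.0293), a call that, of the 6 fits leaving out 1 array, only that without D3.5 replicate 1 kept (-0.59), that was lost as deposited (-0.40), and a direction that turned with median centring (0.02). Acvr1c (0.27 ± 0.07) and Amhr2 (-0.30 ± 0.10) passed at background level on both days, and both calls were lost with the replicate block (adjusted p = 0.0571 and 0.0704), that of Acvr1c also with median centring (0.20). Leaving out 1 array kept the call of Acvr1c only for D3.5 replicate 1 or D4.5 replicate 1, and that of Amhr2 only for D4.5 replicate 3. As deposited Acvr1c stood at -0.22 and Amhr2 at -0.79.

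Of 8 co-receptor and decoy genes 2 fell and none rose (median change -0.19). Bambi, a decoy receptor that lacks a kinase and inhibits signalling, stood at 8.73, 8.82 and 9.32 on D3.5 and at 7.87, 7.84 and 8.06 on D4.5. It fell by 1.04 ± 0.16 on the log2 scale, or 2.05-fold (limma adjusted p = 0.00187), and by 0.69 with median centring. Tdgf1, a co-receptor of Nodal, changed by -0.36 ± 0.08 at background level on both days, inside the range of changes of the chemosensory receptor genes. As deposited Tdgf1 stood at -0.86.

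Of 28 other ligand genes 2 rose and 9 fell (median change -0.11), none past 2-fold, and 10 lay at background level on both days. The falls with the smallest p were those of Bmp3 (-0.48 ± 0.08), Bmp8a (-0.45 ± 0.09) and Gdf7 (-0.50 ± 0.10), and Gdf7 did not pass with median centring (-0.26). As deposited Bmp3 stood at -0.93 and Bmp8a at -0.80. The quantile-normalized changes of these 3 genes lie inside the 95% range of changes of the chemosensory receptor genes. Gdf15, a stress-responsive ligand gene, rose by 0.38 ± 0.11 (limma adjusted p = 0.0242), a call that, of the 6 fits leaving out 1 array, only that without D3.5 replicate 1 kept (0.49). Lefty2, an inhibitor of Nodal, passed with 0.31 ± 0.07 at background level on both days. That change lies inside the 95% range of changes of the chemosensory receptor genes. Gdf15 and Lefty2 turned as deposited (-0.02 and -0.13).

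Inside the cell, 8 of 22 SMAD and regulator genes rose and 4 fell (median change 0.06). Smad3, the mediator of activin and TGF-beta, stood at 9.73, 9.69 and 9.41 on D3.5 and at 10.24, 10.20 and 10.27 on D4.5. It rose by 0.63 ± 0.10 (limma adjusted p = 0.00202), and by 1.10 with median centring. Fkbp1a, whose product binds type I receptors, rose by 0.95 ± 0.07 and Smurf1, a ubiquitin ligase of SMADs and receptors, by 0.62 ± 0.09. With median centring they rose by 1.47 and 1.03. The 3 genes with the smallest p among the falls were Zfyve9, which holds SMADs at the receptor (-0.47 ± 0.06), Smad9 (-0.36 ± 0.08, and -0.78 as deposited) and Skil, a repressor of SMADs (-0.78 ± 0.18). Zfyve9 (-0.15) and Skil (-0.40) did not pass with median centring. The quantile-normalized changes of Zfyve9 and Smad9 lie inside the range of the chemosensory receptor genes.

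Smad1, Smad2, Smad4 and Smad5 are named here after their values were seen. Of the BMP branch, Smad5 was higher by 0.58 ± 0.18 (limma adjusted p = 0.0343) and Smad1 lower, with -0.41 ± 0.13 (adjusted p = 0.0328), inside the range of the chemosensory receptor genes. Smad5 lost its call with the replicate block (adjusted p = 0.0725) and without 3 of the arrays in turn, D3.5 replicate 3 (0.44), D4.5 replicate 1 (0.61) or D4.5 replicate 3 (0.40), and stood at 1.04 with median centring. Smad1 lost its call without any 1 array other than D3.5 replicate 3 and stood at 0.02 with median centring. Smad2 (-0.01 ± 0.08) and the shared partner Smad4 (0.07 ± 0.09) did not pass, but both did with median centring, at 0.37 and 0.54.

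Of 22 genes known as targets of the pathway 3 rose and 8 fell (median change -0.07). Msx1, a homeobox gene that BMPs induce in many tissues, stood at 10.56, 10.71 and 10.71 on D3.5 and at 8.77, 8.87 and 9.00 on D4.5 and fell by 1.78 ± 0.09 on the log2 scale (limma adjusted p = 1.64e-05). Ctgf, a TGF-beta target now named Ccn2, stood at 11.98, 12.47 and 12.26 on D3.5 and at 10.70, 10.14 and 10.79 on D4.5 and fell by 1.69 ± 0.19 (adjusted p = 0.000536). Dlx5, a further homeobox target of BMPs, fell by 0.91 ± 0.11, and by 0.40 with median centring. In the other direction, Tgfbi, a matrix protein gene named for its induction by TGF-beta, stood at 8.96, 9.52 and 8.21 on D3.5 and at 11.07, 10.92 and 11.42 on D4.5. It rose by 2.24 ± 0.31, or 4.72-fold (adjusted p = 0.00122). Junb rose by 0.63 ± 0.14 (1.08 with median centring) and Lif passed with a fitted difference of 0.63 ± 0.15 (0.22 and no call as deposited). Lif was at background level on D3.5, so the size of its rise is uncertain. With its D3.5 arrays raised as for Inhbb, the difference was 1.41-fold, an estimate without an interval. The 95% interval of its fitted difference was 0.29 to 0.97. The 4 Id genes, direct targets of BMP SMADs, are named after their values were seen. Id3 (0.02 ± 0.18, adjusted p = 0.948) and Id4 (-0.08 ± 0.12, adjusted p = 0.623) did not pass, though Id4 did as deposited (-0.32, adjusted p = 0.04). Id1 did not pass either (0.24 ± 0.23, but 0.71 and a call with median centring), and Id2 passed with -0.76 ± 0.23 (adjusted p = 0.0319), a call lost with median centring (-0.21) and without D3.5 replicate 1 (-0.63), D3.5 replicate 3 (-0.74), D4.5 replicate 2 (-0.51) or D4.5 replicate 3 (-0.83).

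**Figure D5:**
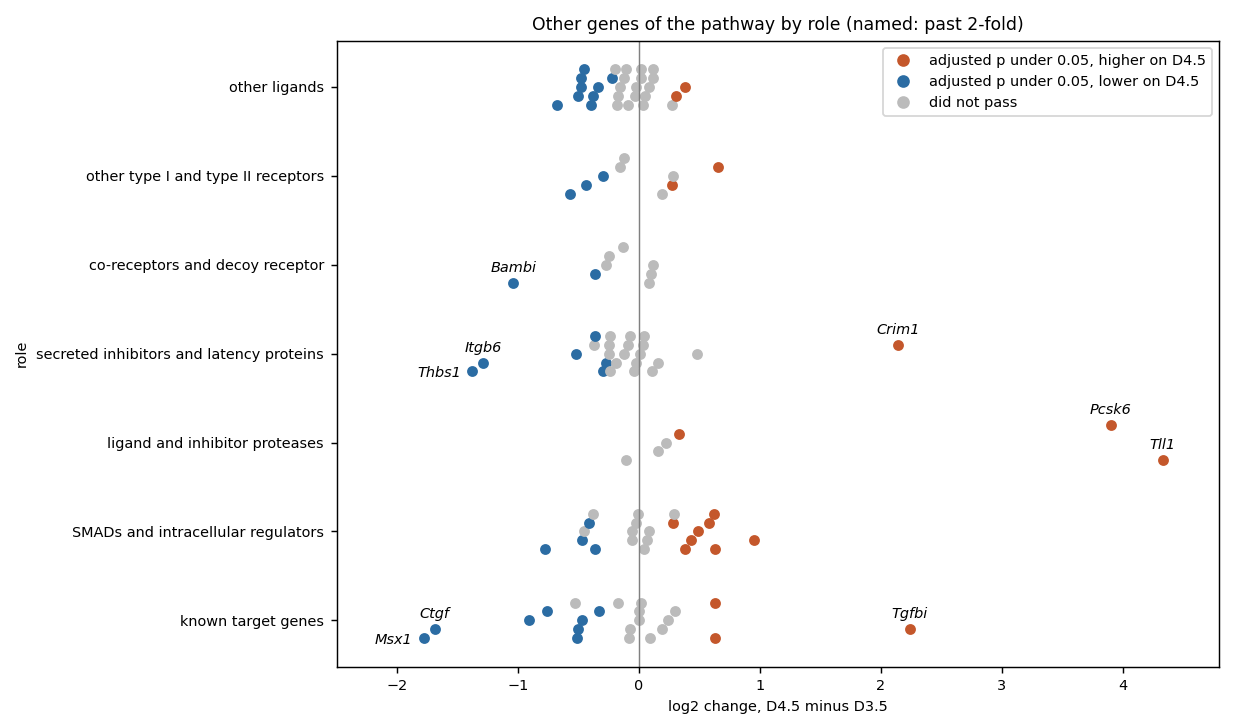
Log2 change of D4.5 minus D3.5 for the 119 other pathway genes, 1 point each, by role; orange and blue points passed the adjusted p and grey points did not, and genes past 2-fold are named. Most points lie within 1 of 0 in every role, and the 2 protease genes Pcsk6 and Tll1 lie farthest right.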

How the data were processed

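The 2 deposited tables held the same linear intensity values of the authors' 6 arrays, and differed on 1 of 35556 rows. Per the labels' protocols, biotin-labelled cRNA was made from 1 µg of total RNA by the Affymetrix protocol; the summary software and its normalization are named nowhere in the labels or the tables (not given in the sources used here). Rows were named by the symbol column, and 25070 rows with 1 symbol gave 21740 genes. Around each member, the 2 days' means correlated over 41 neighbouring rows with 0.78 to 0.96, and with at most 0.52 when shifted by 1 or 2 rows.

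Values were log2(intensity + 16), quantile normalized over all rows, and rows of a symbol were averaged, since over the table rows of a gene did not keep their order between the days. The contrast of D4.5 minus D3.5 was fitted in R 4.3.3 by limma 3.58.1 with lmFit and eBayes, two-sided, Benjamini-Hochberg over 21740 genes, threshold 0.05. The fit was tested on simulated data. Python 3.11.15, pandas 2.3.3 and matplotlib 3.10.9 did the rest. No filter was set, and arrays have no read depth, so their number limits the precision. Members, lists and alternatives were chosen with earlier results of these data known. Named are all members and, per role list, genes past 2-fold and up to 3 passing genes per direction with the smallest p, and the 3 genes nearest in profile to the member that changed most; Smad1, Smad2, Smad4, Smad5 and the 4 Id genes are named outside this rule. Alternatives were median centring, values as deposited, constants of 1 and 64, genes above the median level, the highest row, trend and robust eBayes, array weights, a replicate block and each array left out.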

Additional observations from a re-analysis of the deposited data

How the results depend on the processing

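Over the alternatives the 10 members gave 2 to 4 calls, apart from 5 as deposited, beside 3 (2 to 3 without 1 array). The calls of Inhbb and Acvr1 were kept in every alternative in which they were tested. Each of these genes has 1 row, so the highest row could not alter its change. Counts of calls in either direction that moved by over 1.5 times were those as deposited, 15914 of all genes and 78 other pathway genes in place of 9651 and 51, and 5771 among the 10870 genes above the median level, where fewer genes were tested. Without 1 array they ran from 6540 to 9813 and from 35 to 48. Of all calls 40.6% were higher on D4.5, 58.8% with median centring (6093 in place of 3914) and 15.6% as deposited, where the median gene changed by -0.40 in place of -0.07.

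Directions turned with median centring for Inhba (-0.01), Fstl3 (0.13), Acvr2a (0.23), Bmpr1a (0.46), Bmpr2 (0.02), Smad1 (0.02), Smad2 (0.37) and Id4 (0.11); as deposited for Inhba (-0.44), Bmp2 (-0.11), Tgfb2 (-0.30), Bmpr1a (0.04), Acvr1c (-0.22), Gdf15 (-0.02), Lefty2 (-0.13) and Id3 (-0.13); and with array weights for Bmpr1a (0.01) and Id3 (-0.17). Without 1 array they turned for Inhba (-0.02 to 0.14), Fstl3 (-0.03 to 0.01), Acvr2a (-0.16 to 0.02), Bmpr1a (-0.04 to 0.01, with 0.00 without D4.5 replicate 1), Smad2 (-0.07 to 0.04), Smad4 (0.00 to 0.14), Id3 (-0.18 to 0.21) and Id4 (-0.15 to 0.02). The cause was not tested. Arrays of equal replicate number share only that number: their deviations from the day means correlated with -0.06, 0.056 and 0.096, and not every array correlated best with its own number (D3.5 replicate 2 and D4.5 replicate 1 had 0.163). With the replicate block 3 members, 46 other pathway genes and 8283 of all genes passed. Processing of the arrays may have differed by day, which cannot be told apart from the day itself, and 3 arrays a day limit what small changes can be seen.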
